A study of Mus musculus with 6 samples.

Results

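The genes described here form the TGF-beta and BMP signalling pathways, as a list of 45 ligands, latent TGF-beta binding proteins, receptors, secreted antagonists, SMAD proteins and target genes. They were picked by symbol from a table of raw read counts by a rule that uses no count, though the list was drawn up with earlier results of these data known. The table has 15159 genes and holds a row for 43 of the 45, all but Bmp10 and Grem1. All 43 passed the filter on low counts that left 14758 genes for testing.

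The study sequenced polyadenylated RNA from cardiac cells of embryonic day 18.5 mice of the strain C57BL/6 x 129S4/SvJae. The cells carried an inducible transgene for histone H3.3, which was the wild-type protein in 1 group (H3WT) and a lysine-to-methionine mutant at lysine 9 in the other (H3K9M). Both groups grew for 4 days on soft silicone (PDMS) of 13 kPa and received 2 µg/ml doxycycline, the inducer of the transgene, on days 0, 1 and 2. The series' design text gives that substrate for all samples, whereas the titles of replicate 2 in both groups do not name it, and the titles' tags (the letter M with a number) are not explained. Each group had 3 libraries. The promoter behind the transgene and the number of animals behind a library were not given in the sources used here, so a p-value reflects only how these libraries spread, which may be technical. Gene counts do not separate the transgene's transcript from endogenous H3.3, so the labels could not be checked on it.

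TGF-beta is secreted in a latent form that latent TGF-beta binding proteins (LTBPs) tether to the extracellular matrix. TGF-beta, activin and BMP ligands bind pairs of type I and type II receptor kinases, which phosphorylate SMAD2 and SMAD3 on the TGF-beta and activin side and SMAD1, SMAD5 and SMAD9 on the BMP side. These enter the nucleus with SMAD4, and SMAD6 and SMAD7 restrain the signal. In the heart the pathways are known for endocardial cushion formation, for cardiomyocyte specification and for activation of fibroblasts.

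Library totals lay between 55550379 and 67994773 counts, and the 43 genes took 0.457 to 0.604% of them. Their totals over the 6 libraries ran from 108 counts for Nog to 861623 for Fstl1, and 6 of the genes were under 10 CPM (the usual library-size scaling of counts) in both groups. Markers of 10 genes each were summed for 6 cell classes, and no cell class was absent. The cardiomyocyte sum was 29033 to 35651 CPM in H3WT against 30857 to 34431 CPM in H3K9M, which fits the cardiac label of both groups. The endothelial sum was 219, 215 and 284 CPM in H3WT against 123, 198 and 145 CPM in H3K9M, so that the groups did not overlap, and each of its 10 genes had counts. Of these 10, 9 had a negative difference, and Robo4 passed the test (edgeR adjusted p = 0.0453). The macrophage sum was 157 to 573 CPM in H3WT against 225 to 296 CPM in H3K9M, and the fibroblast sum 1048 to 1831 and 1507 to 1681 CPM. The smooth muscle and pericyte sum was 2055 to 2208 CPM in H3WT against 2357 to 2610 CPM in H3K9M, higher in every H3K9M library, while its marker Smtn passed the test as lower (edgeR adjusted p = 0.0443). Of these 10 markers, 6 had a positive and 4 a negative difference, and 1 was above and 1 below in every H3K9M library. Des, the marker with the highest mean CPM in that sum, was at 576, 600 and 785 CPM in H3WT against 1171, 826 and 766 CPM in H3K9M. With Des left out, the sums of the remaining smooth muscle and pericyte markers overlapped between the groups. The epicardial and mesothelial sum was 80.8 to 121 and 87.9 to 130.5 CPM, and its marker Krt8 passed as higher (edgeR adjusted p = 0.0159). The fibroblast markers Col6a3 and Ddr2 passed the test as higher (edgeR adjusted p = 0.042 and 0.021), and 6 of the 10 fibroblast markers had a negative difference. Summed Y-linked transcripts ran from 62.2 to 165 CPM in H3WT against from 63.3 to 128 CPM in H3K9M, so libraries within each group differed in these transcripts of male cells. In bulk RNA, fewer cells of a type and less RNA per cell cannot be told apart.

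**Figure D1:**
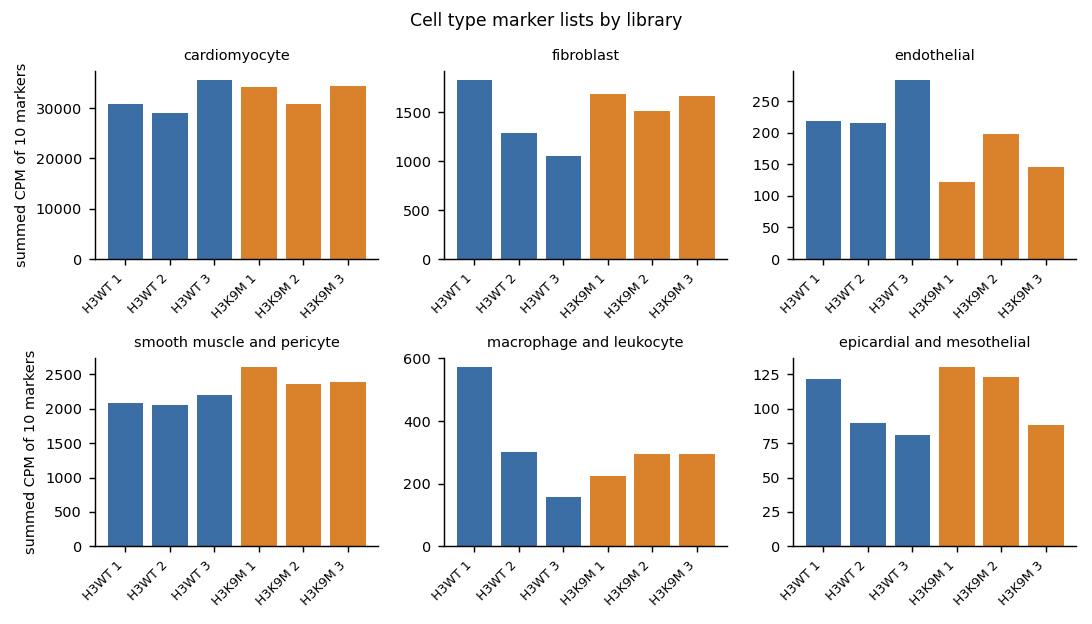
Summed CPM of 10 marker genes for each of 6 cell classes, 1 bar per library (H3WT and H3K9M, replicates 1 to 3, linear axes from 0). The endothelial sums of H3K9M, 123 to 198 CPM, lie below those of H3WT, 215 to 284 CPM. The smooth muscle and pericyte sums of H3K9M lie above, though not with Des left out, and the other 4 classes overlap.

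The comparison of H3K9M with H3WT asked which of these transcripts differed with the mutant histone. The target genes Tgfbi and Id3 fell in H3K9M, and none of the 43 genes rose, by the quasi-likelihood test of edgeR with Benjamini-Hochberg adjustment over all 14758 genes. Over all tested genes 1.05% were called lower and 0.935% higher. DESeq2 called 2 of the 43 higher (Ltbp2 and Bambi) and 8 lower (Tgfbi, Id1, Id3, Id4, Bmp4, Ltbp4, Tgfbr2 and Smad5), where it called 3.22% and 3.69% of all tested genes, and limma-voom called 0 higher and Tgfbi lower, where it called 0.745% and 0.759%. At an unadjusted edgeR p under 0.05 there were 2 higher and 14 lower, against 7.78% and 8.61% of all tested genes.

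Of the 43 genes, 33 had a negative log2 ratio of H3K9M over H3WT, the fold change on the log2 scale (76.7%, against 50.5% of all tested genes). The median log2 ratio of the 43 was -0.20, and that of all tested genes -0.0024. Every H3K9M library was below every H3WT library for 11 of the 43 (25.6%), against 11.3% of all tested genes, and above for 3, Bambi, Ltbp2 and Bmpr1b, against 11.3%. In either direction these 14 genes compare with 22.6% of all tested genes. Leaving out 1 library gave 0 to 4 genes called lower by edgeR. The count was 0 without H3WT replicate 1 or 2 or without H3K9M replicate 1 or 3, 1 without H3K9M replicate 2, and 4 without H3WT replicate 3. Without H3WT replicate 3 Bambi was also called higher. Without replicate 2 of both groups, a setting chosen after seeing the data, edgeR called 0 of all tested genes in either direction, and 2 of the 43 were higher and 9 lower at an unadjusted edgeR p under 0.05, against 606 and 772 of 14786 genes tested. DESeq2 and limma-voom were not run there.

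**Figure D2:**
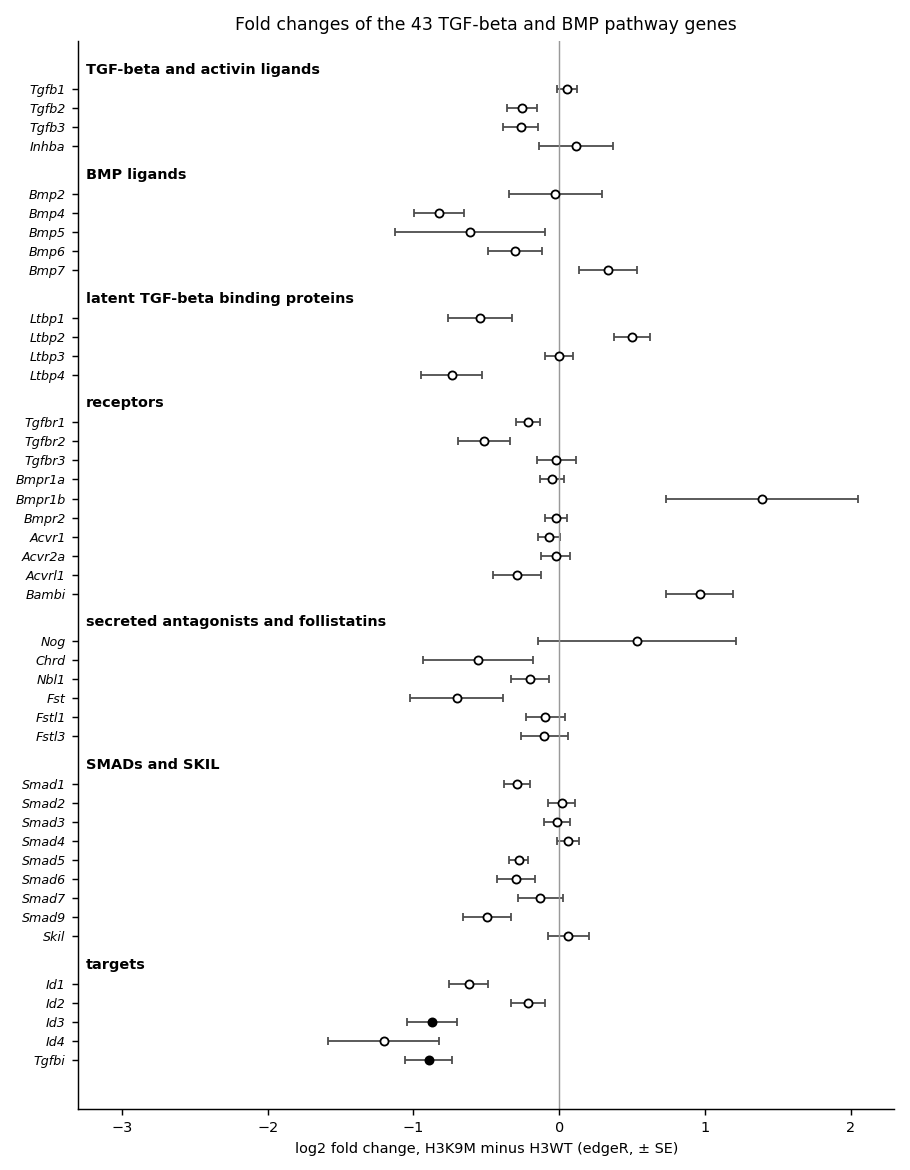
Log2 ratio (H3K9M over H3WT) ± SE from edgeR for the 43 genes, grouped by role, with filled points for an edgeR adjusted p under 0.05. Points to the left of 0, 33 of the 43, are lower in H3K9M, and the filled points are Id3 and Tgfbi.

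**Figure D3:**
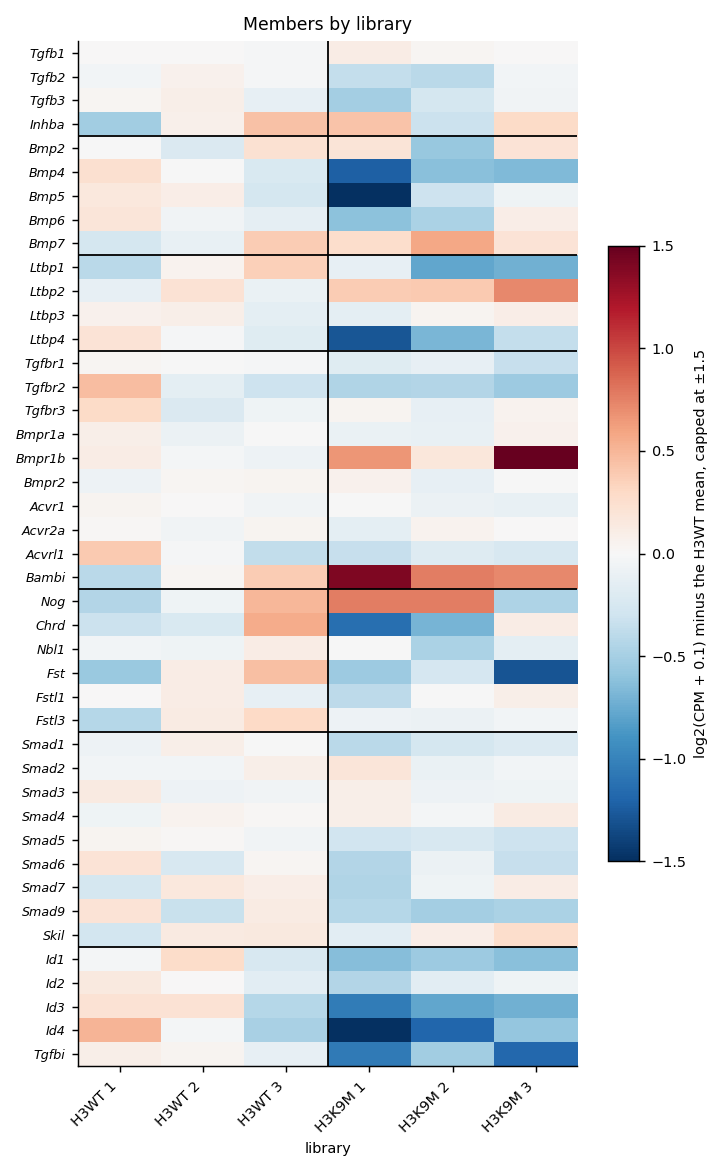
Log2 (CPM + 0.1) of each of the 43 genes in each of the 6 libraries, minus the mean of the 3 H3WT libraries, with colours limited to ±1.5. The row of Bambi is above its H3WT mean in all 3 H3K9M libraries, and the rows of Id1, Id3, Id4, Tgfbi and Bmp4 are below theirs.

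The target genes stood lowest among the roles. All 5 had a negative log2 ratio, with a median of -0.87. In 4 of them every H3K9M library was below every H3WT library, as in 11.3% of all tested genes. Tgfbi encodes a secreted matrix protein that TGF-beta induces. Tgfbi (chromosome 13, 56609523 to 56639562 on GRCm38) was at 68.1, 65.5 and 58.5 CPM in H3WT replicates 1 to 3, against 30.7, 44.4 and 28.1 CPM in H3K9M replicates 1 to 3. The highest H3K9M library was below the lowest H3WT library. The mean fell from 64.0 ± 4.98 CPM (SD, n = 3) to 34.4 ± 8.75 CPM, a log2 ratio of -0.90 ± 0.16 (SE), at an edgeR adjusted p of 0.0373. The adjusted p was 1.05e-05 with DESeq2 and 0.0315 with limma-voom. The edgeR call was lost without H3WT replicate 1 (adjusted p = 0.0767), H3WT replicate 2 (0.145), H3K9M replicate 1 (0.108) or H3K9M replicate 3 (0.105), with log2 ratios between -0.77 and -0.88.

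The Id genes encode inhibitors of basic helix-loop-helix transcription factors and are known targets of BMP signalling. Id3 (chromosome 4, 136143497 to 136145755) was at 129.8, 130.6 and 83.1 CPM in H3WT against 54.3, 65.4 and 67.9 CPM in H3K9M. All H3K9M libraries were below the lowest H3WT library, replicate 3. The mean fell from 114 ± 27.2 to 62.5 ± 7.23 CPM, a log2 ratio of -0.87 ± 0.17 with an edgeR adjusted p of 0.0443. DESeq2 gave an adjusted p of 2.69e-05, and limma-voom gave 0.0607, which is not a call. The edgeR call was also lost without H3WT replicate 1 (adjusted p = 0.0924), H3WT replicate 2 (0.179), H3K9M replicate 1 (0.129), H3K9M replicate 2 (0.126) or H3K9M replicate 3 (0.111). Without H3WT replicate 3 the log2 ratio was -1.06, with an edgeR adjusted p of 0.00445.

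Id1 (chromosome 2, 152736251 to 152737410) was at 29.8, 36.6 and 25.7 CPM in H3WT against 19.4, 20.8 and 19.6 CPM in H3K9M. The 3 H3K9M values lay close together and below all H3WT values. The log2 ratio was -0.62 ± 0.13, with an adjusted p of 0.0578 in edgeR, 0.00147 in DESeq2 and 0.0244 in edgeR without H3WT replicate 3. Id4 (chromosome 13, 48261228 to 48266026), the target gene with the lowest level per kilobase, was at 6.13, 4.18 and 3.01 CPM in H3WT against 1.16, 1.81 and 2.81 CPM in H3K9M. Its log2 ratio of -1.20 ± 0.38 had an adjusted p of 0.164 in edgeR and 0.0287 in DESeq2, and H3WT replicate 3 lay just above H3K9M replicate 3. Id2 overlapped, at 60.7 ± 6.39 CPM in H3WT against 52.3 ± 6.95 CPM in H3K9M (log2 ratio -0.21 ± 0.12).

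Per kilobase of exon, Id3 was the most abundant of the 4 Id genes in all 6 libraries. It took 50.7 to 56.9% of their summed CPM per kilobase in H3WT and 46.2 to 47.7% in H3K9M, so its share of the family did not overlap between the groups. The share of Id2 was 19.1 to 24.3% in H3WT and 27.9 to 30.0% in H3K9M. Shares within a family depend on each other, and the mean level of Id2 itself was not higher in H3K9M (60.7 CPM in H3WT, 52.3 CPM in H3K9M). Within H3WT, replicate 3 had the highest endothelial marker sum (284 CPM) and the lowest Id3 level (83.1 CPM). Within H3K9M, replicate 1 had both the lowest endothelial sum (123 CPM) and the lowest Id3 level (54.3 CPM). The endothelial markers did not move together in H3WT, where replicate 3 was highest for Cdh5 (88.7 CPM) and lowest for Tek (16.6 CPM). Over the groups the endothelial sum and Id3 were both lower in H3K9M, and the part of the endothelial markers, or of the smooth muscle markers, in the values of the Id genes, or of any other gene described here, was not tested.

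Stretches before the start sites of Tgfbi, Id3, Id4, Bmp4 and Tgfbr2, some of the genes lower in H3K9M, are shown as examples. SMAD proteins are known to bind short motifs there. Sequences are from RefSeq on GRCm38.p6, and 32 of the 45 genes had 1 to 3 windows, 40 in all, of 250 bases before a start. The motifs searched on both strands were CAGAC, which reads as GTCTG on the other strand and is the box of SMAD3 and SMAD4; GTCTAGAC, its palindromic form; and GGCGCC, a GC-rich element of SMAD1 and SMAD5. No 1 of these contains another. Matches stand in capitals.
Tgfbi, chr13:56609336-56609522, plus strand: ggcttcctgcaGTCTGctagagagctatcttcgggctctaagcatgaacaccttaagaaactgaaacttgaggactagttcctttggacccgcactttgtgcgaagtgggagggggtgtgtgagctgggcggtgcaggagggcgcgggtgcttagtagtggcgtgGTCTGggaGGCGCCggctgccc
Id3, first match, chr4:136143643-136143672, plus strand: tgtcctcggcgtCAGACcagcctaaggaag
Id3, second match, chr4:136143742-136143771, plus strand: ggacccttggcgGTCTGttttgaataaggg
Id4, chr13:48260866-48261115, plus strand: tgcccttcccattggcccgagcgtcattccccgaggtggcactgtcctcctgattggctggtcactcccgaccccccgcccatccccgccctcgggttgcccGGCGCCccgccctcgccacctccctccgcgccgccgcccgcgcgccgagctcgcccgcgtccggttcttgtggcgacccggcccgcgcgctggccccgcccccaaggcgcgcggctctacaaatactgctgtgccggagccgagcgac
Bmp4, chr14:46390670-46390919, minus strand: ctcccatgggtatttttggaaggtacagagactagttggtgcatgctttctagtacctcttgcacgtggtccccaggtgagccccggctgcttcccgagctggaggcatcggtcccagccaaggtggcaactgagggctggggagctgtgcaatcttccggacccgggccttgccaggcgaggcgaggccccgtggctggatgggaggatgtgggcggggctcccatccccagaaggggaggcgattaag
Tgfbr2, chr9:116175364-116175613, minus strand: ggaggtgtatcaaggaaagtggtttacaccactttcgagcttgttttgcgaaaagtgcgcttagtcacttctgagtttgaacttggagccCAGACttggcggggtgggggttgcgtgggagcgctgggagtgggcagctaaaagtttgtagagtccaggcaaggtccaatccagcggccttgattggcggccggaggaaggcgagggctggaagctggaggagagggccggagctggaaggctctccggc

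For Tgfbi the 187 bases before the gene's first annotated base are shown, with 2 CAGAC boxes, both read on the other strand, and 1 GGCGCC. The Id3 window lies in an annotated exon, so only 30 bases around each of its 2 CAGAC boxes are shown. The Id4 window held 1 GGCGCC, that of Tgfbr2 held 1 CAGAC, and that of Bmp4 held none of the motifs. Of genes not shown, Ltbp2, which was higher in H3K9M, held 2 CAGAC boxes. Smad9 and Smad1, which were lower, held 1 GGCGCC and none of the motifs. Counted per gene, in any of its windows, CAGAC occurred in 15 of the 32 listed genes (46.9%) and in 46% of 10905 tested genes with a window. Counted per window, it occurred in 17 of the 40 (42.5%) and in 42.2% of all 32841 windows. GGCGCC occurred in 12 of the 32 genes (37.5%), against 19.3% of tested genes, and in 13 of the 40 windows (32.5%), against 9.59% of all windows. The median GC content was 64.2% in the listed genes and 60.0% in tested genes, by the first window of each gene, and 52.4% over all windows. GTCTAGAC occurred in 0 of the 32 genes, and in 0.248% of tested genes. A match describes letters in the window and is no evidence of binding.

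None of the 5 measured BMP ligand genes passed edgeR's test. Of these 5, 4 had a negative log2 ratio and the median was -0.30. At an unadjusted edgeR p under 0.05 there was 1, Bmp4, which DESeq2 also called, and limma-voom called 0. Among all tested genes 8.61% were lower at that unadjusted p, and DESeq2 called 3.69% lower. Bmp4, a ligand of cardiac mesoderm and outflow tract development, lies on chromosome 14 at 46383520 to 46390669. It was at 91.3, 76.8 and 66.0 CPM in H3WT against 32.9, 50.2 and 48.8 CPM in H3K9M. All H3K9M libraries were below the lowest H3WT library, replicate 3. Means were 78.0 ± 12.7 and 44.0 ± 9.62 CPM, a log2 ratio of -0.83 ± 0.17 with an adjusted p of 0.0549 in edgeR, 0.000147 in DESeq2 and 0.0593 in limma-voom. Without H3WT replicate 3 the edgeR adjusted p was 0.0382.

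Per kilobase of exon, Bmp4 was the most abundant BMP ligand in all 6 libraries, with 71.0 to 75.8% of the summed level of the 5 in H3WT and 61.5 to 68.3% in H3K9M. Bmp6, a ligand of endothelial and liver cells, followed at 9.03 CPM per kilobase in H3WT and 7.32 in H3K9M. Of its exon bases, 224 overlap Txndc5 on the opposite strand, a gene at 519 to 618 CPM, so that its level is uncertain. Bmp6 was at 35.2 ± 4.07 CPM in H3WT against 28.6 ± 8.03 CPM in H3K9M, and the groups overlapped. Bmp7 had the opposite sign, with 8.91 ± 2.21 and 11.2 ± 1.68 CPM and a log2 ratio of 0.34 ± 0.20 (edgeR adjusted p = 0.455). Bmp2 (1.99 and 1.95 CPM) and Bmp5 (1.42 and 0.929 CPM) were near the lower end of what was measured.

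Of the 4 TGF-beta and activin ligand genes none was called by edgeR, DESeq2 or limma-voom, 2 had a negative sign, and Tgfb2 alone had an unadjusted edgeR p under 0.05. Tgfb3, the ligand with the highest level per kilobase of the 3 TGF-beta genes in every library, was at 285, 297 and 256 CPM in H3WT against 195, 233 and 269.6 CPM in H3K9M. The H3K9M replicate 3 value lay within the H3WT range, and the log2 ratio was -0.26 ± 0.12 (edgeR adjusted p = 0.326). Tgfb2 was at 133 ± 5.17 CPM in H3WT against 112 ± 15.8 CPM in H3K9M, a log2 ratio of -0.25 ± 0.10 (edgeR adjusted p = 0.262). Tgfb1, the isoform most studied in fibrosis, was at 62.3 ± 0.735 and 64.5 ± 2.51 CPM, a log2 ratio of 0.05 ± 0.07. Inhba, which encodes the subunit of activin A, was at 42.4 ± 13.6 and 45.8 ± 11.8 CPM. Tgfb3 made up 68.5 to 70.8% of the TGF-beta transcripts per kilobase in H3WT and 64.8 to 69.6% in H3K9M, ranges that overlap.

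The LTBP genes went in both directions. Ltbp2 and Ltbp4 each separated the groups, with opposite signs, and neither passed edgeR's test. Among all tested genes 11.3% were above and 11.3% below in every H3K9M library. Ltbp4 (chromosome 7, 27305136 to 27337692), a binding protein of elastic fibres, was at 498, 426 and 380.2 CPM in H3WT against 177, 269 and 336 CPM in H3K9M. Its log2 ratio was -0.74 ± 0.21, with an adjusted p of 0.125 in edgeR and 0.00365 in DESeq2. Ltbp2 (chromosome 12, 84783212 to 84876532), which binds fibrillin and does not bind latent TGF-beta itself, was at 85.0, 108 and 86.7 CPM in H3WT against 121, 121 and 152 CPM in H3K9M. All H3K9M libraries were above the highest H3WT library. The log2 ratio was 0.50 ± 0.12, with an adjusted p of 0.0871 in edgeR and 0.00491 in DESeq2. Of its 8184 exon bases, 764 overlap the antisense gene D030025P21Rik, which had its own row at 0.570 to 2.06 CPM, and without the strand setting reads in the overlap cannot be told apart.

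Ltbp1, which was at 175 ± 44.9 CPM in H3WT against 120.1 ± 32.2 CPM in H3K9M, overlapped between the groups (log2 ratio -0.54 ± 0.22, edgeR adjusted p = 0.267). Ltbp3 was at 272 ± 23.7 and 272 ± 24.0 CPM. Their shares of the family were compared per kilobase. Of the summed level, Ltbp4 took 50.4 to 58.9% in H3WT and 32.7 to 46.3% in H3K9M. Ltbp2 took 7.94 to 10.3% in H3WT and 15.4 to 17.6% in H3K9M. Ltbp3 took 23.1 to 24.9% and 28.6 to 32.2%, and these 3 shares did not overlap between the groups, whereas that of Ltbp1 did. Shares within a family depend on each other, and that of Ltbp3 was higher in H3K9M while its level was 272 CPM in both groups.

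**Figure D4:**
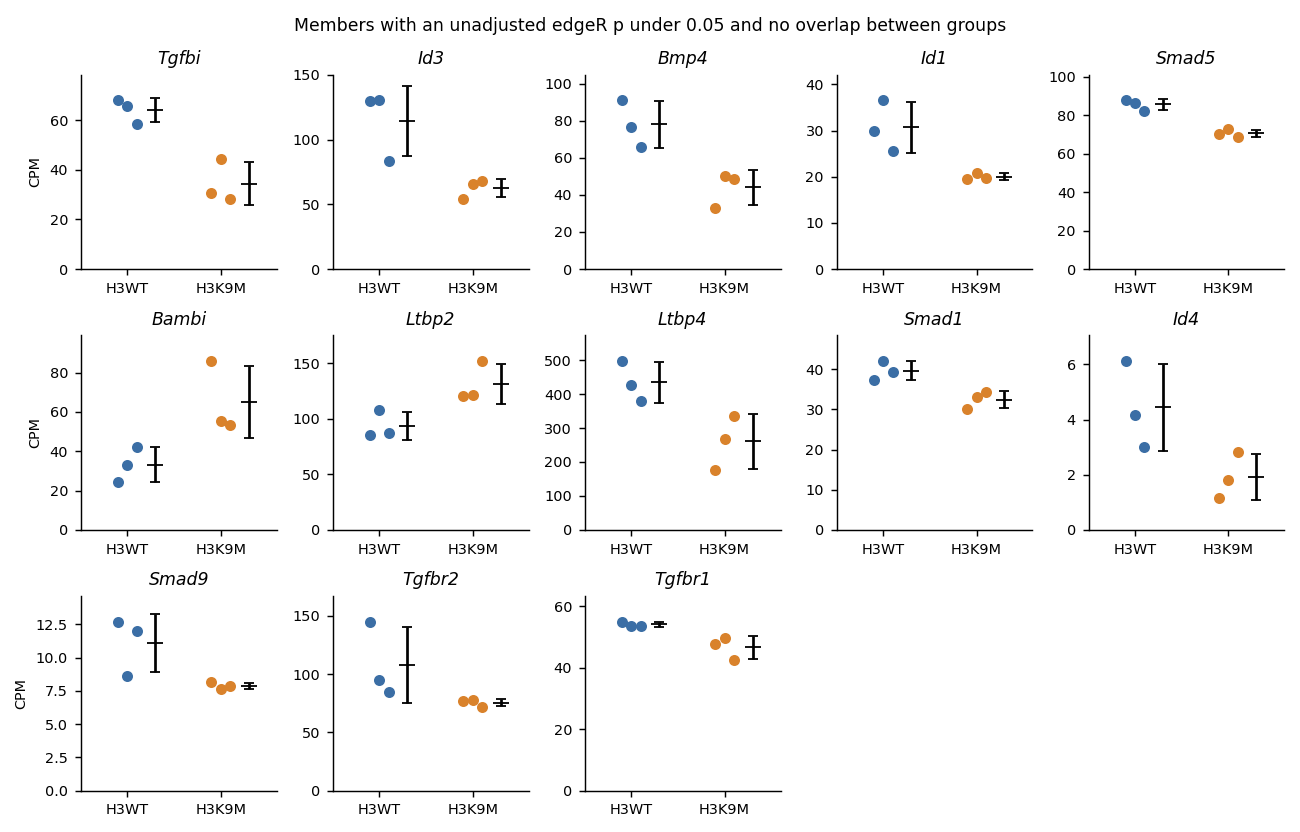
CPM of 13 genes in each library (points, H3WT and H3K9M, 3 each) with the group mean ± SD, on linear axes from 0. The 13 genes were chosen for an unadjusted edgeR p under 0.05 and no overlap between groups, so the separation follows from the choice. In either direction, 22.6% of all tested genes did not overlap. Bambi and Ltbp2 are higher and the other 11 lower in H3K9M.

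Of the 10 receptor genes, none passed edgeR's test. At an unadjusted edgeR p under 0.05 there were 1 higher and 2 lower, DESeq2 called 1 higher (Bambi) and 1 lower (Tgfbr2), and limma-voom called 0. Among all tested genes 7.78% were higher and 8.61% lower at that unadjusted p, and DESeq2 called 3.22% higher and 3.69% lower. Bambi encodes a decoy receptor that lacks a kinase and dampens TGF-beta and BMP signals. It was at 24.4, 33.1 and 42.2 CPM in H3WT against 86.0, 55.2 and 53.4 CPM in H3K9M. All H3K9M libraries were above all H3WT libraries, with the highest value in H3K9M replicate 1. Means were 33.2 ± 8.86 and 64.9 ± 18.3 CPM, a log2 ratio of 0.96 ± 0.23 with an adjusted p of 0.0792 in edgeR, 0.000395 in DESeq2 and 0.0883 in limma-voom. Without H3WT replicate 3 the edgeR adjusted p was 0.0423.

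The type I and type II receptors of TGF-beta were both lower in every H3K9M library than in any H3WT library. This held for 11.3% of all tested genes. Tgfbr2 (chromosome 9, 116084293 to 116175360), the type II receptor, was at 145, 94.8 and 84.4 CPM in H3WT against 76.8, 77.7 and 71.8 CPM in H3K9M. Its spread in H3WT came from replicate 1, the H3WT library with the highest fibroblast (1831 CPM) and macrophage (573 CPM) marker sums, whose part in this value was not tested. The log2 ratio was -0.52 ± 0.18, with an adjusted p of 0.196 in edgeR and 0.0475 in DESeq2. Without H3WT replicate 1 the log2 ratio was -0.25 ± 0.08 (edgeR adjusted p = 0.229). Tgfbr1 (chromosome 4, 47353222 to 47414931), the type I receptor, was at 54.9, 53.6 and 53.5 CPM in H3WT against 47.8, 49.6 and 42.5 CPM in H3K9M. This smaller difference, -0.21 ± 0.08 on the log2 scale, had an adjusted p of 0.251 in edgeR and 0.25 in DESeq2.

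The BMP and activin receptors overlapped between the groups, apart from Bmpr1b. Bmpr1a, a type I BMP receptor, was the receptor gene with the highest mean CPM, at 183, 162 and 172 CPM in H3WT against 161, 159 and 179 CPM in H3K9M. The log2 ratio was -0.05 ± 0.08 (edgeR adjusted p = 0.818). The type II receptor gene Bmpr2 was at 157 ± 6.94 and 155 ± 10.0 CPM. Acvr1 and Acvr2a, receptors shared with activins, were at 47.0 ± 1.63 and 44.8 ± 1.67 CPM and at 18.5 ± 0.655 and 18.2 ± 1.32 CPM. Acvrl1, the endothelial type I receptor also called ALK1, was at 161, 121 and 94.6 CPM in H3WT against 103 ± 5.72 CPM in H3K9M, a log2 ratio of -0.29 ± 0.17 (edgeR adjusted p = 0.439). Tgfbr3, or betaglycan, was at 25.5 ± 4.67 and 25.2 ± 1.67 CPM. Bmpr1b was above in all H3K9M libraries but had 143 counts over the 6 libraries, with 0.206 to 0.249 CPM in H3WT against 0.263 to 1.10 CPM in H3K9M.

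None of the 9 SMAD and Skil genes passed edgeR's test. At an unadjusted edgeR p under 0.05 there were 4, all lower (Smad1, Smad5, Smad6 and Smad9), DESeq2 called 1 of them and limma-voom called 0. Among all tested genes 8.61% were lower at that unadjusted p, and DESeq2 called 3.69% lower. The 3 genes of SMADs on the BMP side had negative values and did not overlap between the groups, where 11.3% of all tested genes were below in every H3K9M library. Smad5 (chromosome 13, 56703010 to 56742377) was at 88.1, 86.5 and 82.5 CPM in H3WT against 70.3, 72.7 and 69.0 CPM in H3K9M. The difference was small against a small spread, -0.28 ± 0.07 on the log2 scale, with an adjusted p of 0.0788 in edgeR and 0.0203 in DESeq2. Smad1 (chromosome 8, 79338395 to 79399518) was at 37.5, 42.1 and 39.4 CPM in H3WT against 30.0, 33.1 and 34.2 CPM in H3K9M (log2 ratio -0.29 ± 0.09, edgeR adjusted p = 0.161). Smad9 (chromosome 3, 54755582 to 54801257) was at 12.7, 8.65 and 12.0 CPM in H3WT against 8.15, 7.65 and 7.85 CPM in H3K9M (log2 ratio -0.50 ± 0.17, edgeR adjusted p = 0.191).

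The SMAD genes of the TGF-beta side and the common partner had values near 0. Smad2 was at 56.4 ± 3.01 CPM in H3WT against 57.0 ± 6.06 CPM in H3K9M, Smad3 at 53.4 ± 4.27 and 52.9 ± 3.39 CPM and Smad4 at 81.6 ± 3.25 and 85.2 ± 4.85 CPM. Their log2 ratios were 0.02 ± 0.09, -0.01 ± 0.09 and 0.06 ± 0.07. No test was made of the difference between the BMP-side and the TGF-beta-side genes. Smad6, an inhibitory SMAD known as a BMP target and the SMAD gene with the highest mean CPM, was at 134, 98.2 and 119 CPM in H3WT against 85.4, 109 and 91.0 CPM in H3K9M. The groups overlapped through H3WT replicate 2 and H3K9M replicate 2 (log2 ratio -0.30 ± 0.13, edgeR adjusted p = 0.299). Smad7, the inhibitor of both branches, was at 85.8 ± 13.0 and 78.4 ± 14.9 CPM, and Skil, a repressor of SMAD-driven transcription, at 83.7 ± 13.2 and 87.4 ± 12.5 CPM.

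The secreted antagonists and follistatins did not separate the groups. Of the 6 measured genes, 0 had an unadjusted edgeR p under 0.05, none was called by edgeR, DESeq2 or limma-voom, and 5 had a negative sign. Fstl1, a follistatin-like glycoprotein of the epicardium and fibroblasts, had the highest level per kilobase of the whole list and was at 2518, 2697 and 2300.1 CPM in H3WT against 1900.0, 2485 and 2648 CPM in H3K9M. Its log2 ratio was -0.10 ± 0.13 (edgeR adjusted p = 0.784), and per kilobase it stood at 509.8 and 477 CPM. Follistatin (Fst), which binds activin, was at 10.0 ± 3.37 and 6.15 ± 2.12 CPM, a log2 ratio of -0.70 ± 0.32 (edgeR adjusted p = 0.319). Fstl3, which shares 1157 of 2445 exon bases with Prss57 (at most 1.30 CPM), was at 65.1 ± 16.1 and 60.6 ± 1.07 CPM and Nbl1 at 31.9 ± 2.18 and 27.8 ± 4.49 CPM. The BMP antagonists chordin (Chrd) and noggin (Nog) were low, at 4.38 and 2.99 CPM and at 0.242 and 0.354 CPM.

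A list of 140 further genes of the superfamily, 114 of them tested, was chosen by function. By edgeR 0 rose and 3 fell, Fbn2, Itgb8 and Timp3. At an unadjusted edgeR p under 0.05 there were 4 higher and 19 lower, DESeq2 called 2 and 12, and limma-voom 0 and 1. Over all tested genes edgeR called 0.935% higher and 1.05% lower, 7.78% and 8.61% had an unadjusted edgeR p under 0.05, and DESeq2 called 3.22% and 3.69%, and limma-voom 0.745% and 0.759%. The median log2 ratio was -0.07, and 71 (62.3%) were negative, against 50.5% of all tested genes. Of these 114 genes, 18 (15.8%) were below in every H3K9M library, against 11.3% of all tested genes.

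Among 25 further secreted modulators, Fbn2 and Itgb8 fell. Fbn2, a fibrillin of the microfibrils that hold latent TGF-beta and BMPs, was at 147, 147 and 159 CPM in H3WT against 111, 104 and 119 CPM in H3K9M (log2 ratio -0.44 ± 0.08, edgeR adjusted p = 0.0345). Itgb8, an integrin subunit that activates latent TGF-beta, was at 9.96, 8.43 and 7.27 CPM in H3WT against 4.88, 4.56 and 4.55 CPM in H3K9M (log2 ratio -0.87 ± 0.17, edgeR adjusted p = 0.0433). In both genes the groups did not overlap. The edgeR adjusted p of Fbn2 was 0.121 without H3WT replicate 2, 0.0521 without H3WT replicate 3, and 0.0981, 0.119 or 0.0686 without H3K9M replicate 1, 2 or 3. That of Itgb8 was 0.102 or 0.163 without H3WT replicate 1 or 2, 0.107, 0.125 or 0.13 without H3K9M replicate 1, 2 or 3, and 0.0666 with limma-voom. The modulators with the highest mean CPM were the proteoglycan gene Bgn and the thrombospondin gene Thbs1. Bgn was at 4343 ± 512 and 3920 ± 382 CPM, and Thbs1 at 4125 ± 623 and 2880 ± 454 CPM. The log2 ratio of Thbs1 was -0.52 ± 0.15, with an adjusted p of 0.125 in edgeR and 0.00612 in DESeq2. DESeq2 called 1 of the 25 modulators higher (Crim1, adjusted p = 0.00726) and 4 lower, against 3.22% and 3.69% of all tested genes.

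Among 29 further genes known to respond to TGF-beta, Timp3 fell. This inhibitor of matrix metalloproteinases was at 1182, 961 and 648 CPM in H3WT against 318, 457 and 486 CPM in H3K9M (log2 ratio -1.15 ± 0.23, edgeR adjusted p = 0.0445). The groups did not overlap, and H3WT replicate 3 was the H3WT library nearest to H3K9M. Without H3WT replicate 1 or 2 the edgeR adjusted p was 0.0828 or 0.168, without H3K9M replicate 1, 2 or 3 it was 0.115, 0.125 or 0.105, with limma-voom 0.0507, and with a stricter filter 0.0529. The 2 genes of that list with the highest mean CPM, fibronectin (Fn1) and collagen I (Col1a1), were at 12074 ± 976 and 8582 ± 1021 CPM and at 5498 ± 504 and 5930 ± 1015 CPM. The log2 ratio of Fn1 was -0.49 ± 0.12 (adjusted p = 0.0797 in edgeR and 0.00038 in DESeq2) and that of Col1a1 0.11. DESeq2 called 1 of the 29 genes higher and 2 lower (Fn1 and Timp3), against 3.22% and 3.69% of all tested genes. The higher gene, Timp1, had a log2 ratio of 0.51 ± 0.12 (adjusted p = 0.0811 in edgeR and 0.00322 in DESeq2). Of the 29 genes 16 had a negative sign and the median was -0.02.

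The other lists held no gene called by edgeR. Of 11 further ligand genes 9 were negative with a median of -0.58, and at an unadjusted edgeR p under 0.05 there were 1 higher and 5 lower, DESeq2 called 4 lower and limma-voom called 0. Over all tested genes 50.5% were negative, 7.78% and 8.61% were higher and lower at that unadjusted p, and DESeq2 called 3.69% lower. Their genes with the highest mean CPM were Gdf6, a BMP-type ligand, and Inhbb, an activin subunit. Gdf6 was at 146 ± 16.4 and 97.4 ± 14.6 CPM (log2 ratio -0.58 ± 0.12, adjusted p = 0.0572 in edgeR and 0.000645 in DESeq2). Inhbb was at 37.2 ± 7.79 and 22.7 ± 3.71 CPM (-0.71 ± 0.18, adjusted p = 0.0856 in edgeR and 0.00314 in DESeq2). Of 10 genes known to respond to BMP, 8 were negative with a median of -0.19, and 0 higher and 2 lower had an unadjusted edgeR p under 0.05, DESeq2 called 1 and limma-voom 0. Among these, the transcription factor gene Atoh8 was at 62.5 ± 19.6 and 37.0 ± 5.12 CPM (-0.75 ± 0.21, adjusted p = 0.125 in edgeR and 0.00657 in DESeq2). Unc5b, a netrin receptor gene, was at 614 ± 89.9 and 691 ± 9.76 CPM.

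The last lists cover receptors and intracellular regulators. For 9 further receptors and co-receptors, none had an unadjusted edgeR p under 0.05 and neither DESeq2 nor limma-voom called any. The TGF-beta co-receptor endoglin (Eng) was at 328 ± 23.6 and 332 ± 15.1 CPM, and Cd109 at 162 ± 32.6 and 149 ± 14.7 CPM. For 30 intracellular regulators 1 higher and 4 lower had an unadjusted edgeR p under 0.05, DESeq2 called 1 lower and limma-voom 0, with a median of -0.02. Among all tested genes 7.78% were higher and 8.61% lower at that unadjusted p, and DESeq2 called 3.69% lower. The receptor-binding Fkbp1a was at 451 ± 51.2 and 475 ± 36.3 CPM, and the SMAD corepressor Ski at 272 ± 18.8 and 289 ± 6.05 CPM.

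The authors' deposited table of their own DESeq2 comparison holds 42 of the 43 genes, all but Nog. At an adjusted p under 0.05, the authors' deposited table has 2 of the 42 genes higher and 6 lower in H3K9M, against 1.76% and 2.26% of its 14691 genes. The adjusted p in the authors' deposited table was 4.44e-07 for Tgfbi, 0.000192 for Id3, 0.000569 for Bambi, 0.000986 for Bmp4, 0.000947 for Ltbp4, 0.0106 for Ltbp2, 0.0234 for Id4 and 0.0476 for Tgfbr2. For Id1 and Smad5 the authors' deposited table gave 0.0655 and 0.372. The mean normalised counts in the authors' deposited table were smaller than the mean raw counts, by a median ratio of 3.97, so that table was made from other counts than those analysed here.

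**Figure D5:**
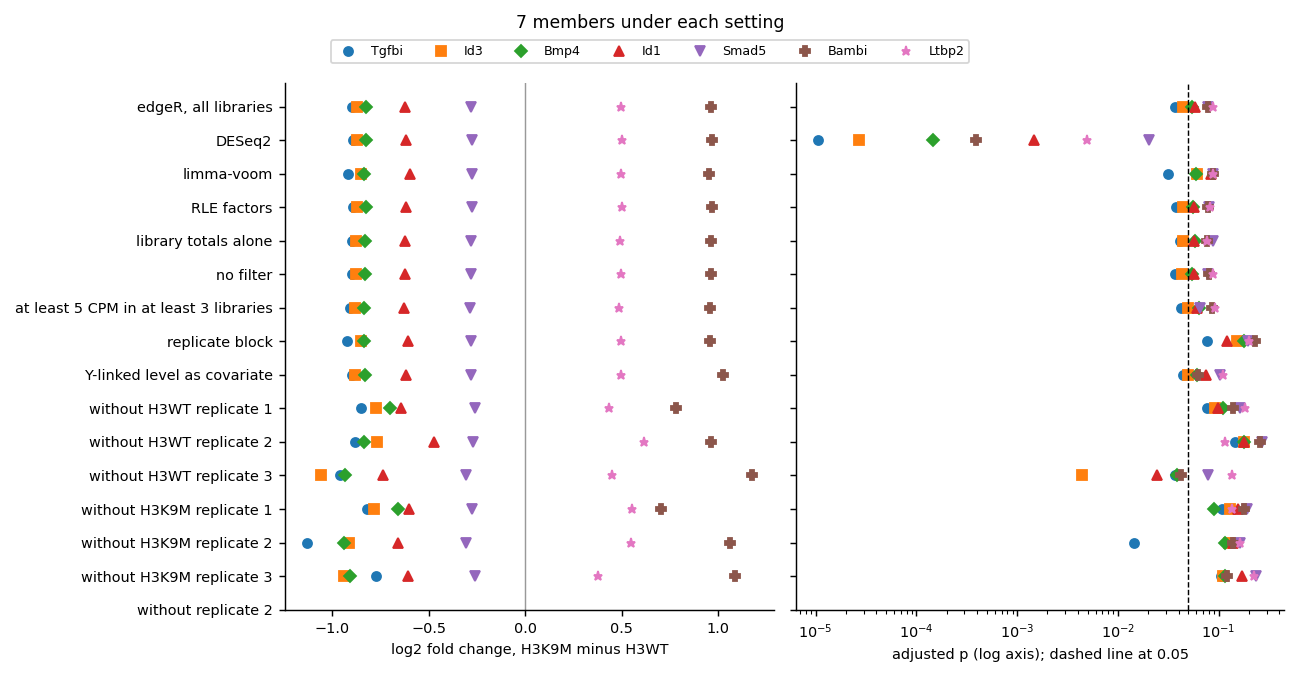
Log2 ratio and adjusted p (log axis, dashed line at 0.05) of Tgfbi, Id3, Bmp4, Id1, Smad5, Bambi and Ltbp2 under 15 settings, edgeR with all libraries and 14 alternatives. These are the 7 of the 43 genes with the lowest unadjusted edgeR p, and in each the groups did not overlap. Leaving out 1 library could therefore hardly change their direction, which stays on 1 side of 0 in all settings. The adjusted p crosses the dashed line. Of all 46 genes recomputed, 12 had the other sign in some setting.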

How the data were processed

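HISAT2, featureCounts, DESeq2 and mouse build mm10 are named in the submitters' processing notes, with versions and strand setting not given in the sources used here. Raw counts, whole numbers per gene, were deposited by the authors as a table with 6 columns that match 1 sample each. A second deposited table holds the authors' DESeq2 comparison, giving a signal (mean normalised count), a log2 fold change and its standard error, the p-value and adjusted p-value, and the Wald statistic, a deposited score left unused here.

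The filterByExpr function (minimum count 10, minimum total 15) kept 14758 of 15159 genes. After TMM scaling, edgeR 4.0.16 (R 4.3.3) tested them by quasi-likelihood with no covariate, and p-values were adjusted by Benjamini-Hochberg over all tested genes, with a threshold of 0.05. Each SE was obtained from the log2 ratio divided by the root of its F value (median SE 0.133). CPM are scaled to the TMM-adjusted library totals and given as mean ± SD of 3 libraries. Levels of different genes were compared per kilobase of merged exons (GENCODE M21, GRCm38, which is mm10). For a single gene, exact permutation of 3 against 3 libraries cannot reach a p under 0.1. The fits were tested on simulated data.

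The members and lists were chosen with earlier results of these data known. Described in every library were genes past the threshold, genes with an unadjusted p under 0.05 and no overlap, and the gene with the highest mean CPM of each role. From the lists of other pathway genes, genes called by edgeR, the 2 most abundant and the genes that DESeq2 called higher are named. Alternatives were DESeq2 1.42.0, voom of limma 3.58.1, RLE factors, library totals alone, no filter, at least 5 CPM in 3 libraries, the replicate number as a block, the Y-linked level as a covariate, leaving out each library, and, added after seeing the data, leaving out replicate 2 of both groups. Replicates of a group differed from each other by a chi-square per gene of 27.2 to 121.5, so none is a copy of another.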

Additional observations from a re-analysis of the deposited data

How the results depend on the processing

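DESeq2 called 2 members higher and 8 lower (475 and 544 of all tested genes), limma-voom called 1 member lower, and leaving out 1 library gave 0 to 1 members higher and 0 to 4 lower, with 30 to 149 and 30 to 223 over all tested genes. Fewer libraries were compared in the latter, and the cause of the changes was not tested for any setting. Same-numbered libraries did not deviate together (correlations of -0.245, 0.047 and -0.118), and 1 of 6 libraries correlated best with its own number, so the numbers were not taken to pair the samples. With a replicate block, 0 members were called lower (adjusted p = 0.0762 for Tgfbi and 0.152 for Id3), with 31 genes higher and 27 lower in all. The block also ended the calls on Fbn2 (adjusted p = 0.096), Itgb8 (0.127) and Timp3 (0.177). Without replicate 2 of both groups, chosen after seeing the data, 0 members and 0 of all tested genes were called. RLE factors, library totals alone, both filters and the Y-linked covariate kept 2 members lower and 0 higher. Of 637 values recomputed for 46 genes, 568 kept their direction and side of the threshold, 11 came to pass it, 33 no longer passed it and 25, of 12 genes, had the other sign, 0 of them past the threshold. The log2 ratio of Ltbp3 was 0.003 with DESeq2 or RLE factors. Leaving out 1 library gave ranges of -0.11 to 0.356 for Inhba, -0.154 to 0.192 for Bmp2, -0.072 to 0.067 for Ltbp3, -0.124 to 0.131 for Tgfbr3, -0.068 to 0.022 for Bmpr2, -0.071 to 0.032 for Acvr2a, -0.192 to 0.034 for Fstl1, -0.292 to 0.055 for Fstl3, -0.075 to 0.069 for Smad2, -0.07 to 0.051 for Smad3, -0.257 to 0.009 for Smad7 and -0.065 to 0.166 for Skil. Depth limits the values of Nog and Bmpr1b, which had 108 and 143 counts over the 6 libraries.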

Other observations

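Other genes of the superfamily outside the naming rule had larger differences with wide spreads, and were chosen after their values were seen. Bmp3, a BMP-family ligand that antagonises other BMPs, was at 27.2, 10.2 and 4.75 CPM in H3WT against 0.222, 1.48 and 2.18 CPM in H3K9M, without overlap. Its log2 ratio was -3.44 ± 0.80, with an adjusted p of 0.0748 in edgeR, 0.0183 in DESeq2 and 0.225 in limma-voom. Fmod, which encodes the TGF-beta-binding proteoglycan fibromodulin, was at 270.4, 126 and 71.9 CPM in H3WT against 28.4, 43.8 and 53.9 CPM in H3K9M, also without overlap. The log2 ratio of Fmod was -1.89 ± 0.44, with an adjusted p of 0.0748 in edgeR and 0.0295 in DESeq2. In both genes H3WT replicate 1 was the highest library and H3K9M replicate 1 the lowest. Gdf1, a nodal-related ligand, was at 2.33, 2.27 and 1.88 CPM in H3WT against 0.666, 0.971 and 0.663 CPM in H3K9M. Its log2 ratio was -1.49 ± 0.33, with an adjusted p of 0.0661 in edgeR and 0.00154 in DESeq2.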
